A study of Mus musculus with 18 samples.

Results

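The cells compared here were mouse embryonic stem cells (ESCs) put through a published protocol that induces mesoderm, and the question was in which genes the change from day 3 to day 6 depended on genotype. One genotype was parental, and in the other Oct1 was conditionally knocked out (cKO). The 12 libraries of days 3 and 6, of 18 in the series, were chosen by genotype and day. There were 3 parental and 3 cKO libraries at each day. The 6 libraries of day 0 entered the filter on low counts, the scaling of libraries to each other and the estimate of the spread. The labels give the cKO genotype as Oct1_cKO and call the cells ESC at each day. Depleted cells were plated on gelatin before differentiation. The allele, the Cre driver, the time of deletion and the number of clones are not stated by the labels, which name no further allele or agent. The series title names Smad factors and mesodermal lineage specification as its subject. Nothing states that the 3 libraries of each group are separate cultures, and p-values measure only the spread between libraries, which may be technical.

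Oct1, encoded by Pou2f1, is a widely expressed transcription factor of the POU family, best known for binding the octamer motif in promoters such as those of H2B histone genes. In an embryo, epiblast cells pass through the primitive streak, marked by T (Brachyury) and kept going by Wnt and FGF signals. Some of these cells form paraxial mesoderm, the source of somites, while some other epiblast cells take a neural fate in the trunk. Leaving the streak state involves silencing T and its partners, and Hox genes switch on in sequence as cells take on trunk identity.

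The main quantity is the difference of changes, on the log2 scale: the cKO change from day 3 to day 6 minus the parental change. A value above 0 means that a gene rose more, or fell less, in cKO cells. Levels are given as CPM, raw counts per gene scaled to library size with edgeR's TMM factors. Calls are genes with an adjusted p under 0.05 in edgeR's quasi-likelihood test with Benjamini-Hochberg adjustment over 20267 tested genes, the test behind each adjusted p below. Lists are described by counts of called members and by their median, beside a share of called genes of 12.4% (higher) and 13.6% (lower) over all tested genes. Totals of the 12 libraries ran from 14046322 to 26995420 counts.

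One library stood apart. Replicate 2 of cKO day 6 correlated with the other two libraries of its group at r = 0.966 and r = 0.968 (log2 CPM across genes), whereas every other pair of libraries within a group gave at least 0.988. Its counts differed from those of its group by a chi-square per degree of freedom of 108 and 97.8, against 3.50 to 12.9 for the other pairs. Nothing in its labels sets it apart, and results are given with and without it. Pou2f1 itself, on chromosome 1 from 165865154 to 166002678 (minus strand, GRCm38), lay at 123, 132 and 136 CPM in parental day 3 and 137, 142 and 141 CPM in parental day 6 libraries. In cKO libraries it lay at 84.7, 95.4 and 81.7 CPM at day 3 and 84.0, 65.4 and 82.5 CPM at day 6, so transcripts of the gene were still counted, and which exons were deleted is not given. Its difference of changes was -0.28 ± 0.16 (adjusted p = 0.205) and did not pass the test.

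The change from day 3 to day 6 differed between genotypes in 5272 genes. It was higher in cKO cells for 2515 genes (12.4% of those tested) and lower for 2757 (13.6%), and it was at least 2-fold different for 1319 and 969 of them. The median over all tested genes was -0.07. With the 12 compared libraries alone, 2422 were higher and 1775 lower, so that 57.7% of calls were higher, against 47.7% with all 18 libraries. In the parental cells alone 6609 genes rose (32.6%) and 6628 fell (32.7%), and in the cKO cells 6351 rose (31.3%) and 7053 fell (34.8%). Across genes the changes of both genotypes correlated at r = 0.79, a description over genes, which are not independent replicates. Without cKO day 6 replicate 2, 3103 of 20814 genes were higher (14.9%) and 3429 were lower (16.5%), and the cKO change itself was up for 6623 (31.8%) and down for 7377 (35.4%). Of the 5272 calls, 5050 were also calls in the same direction without that library, which is 95.8%.

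**Figure D1:**
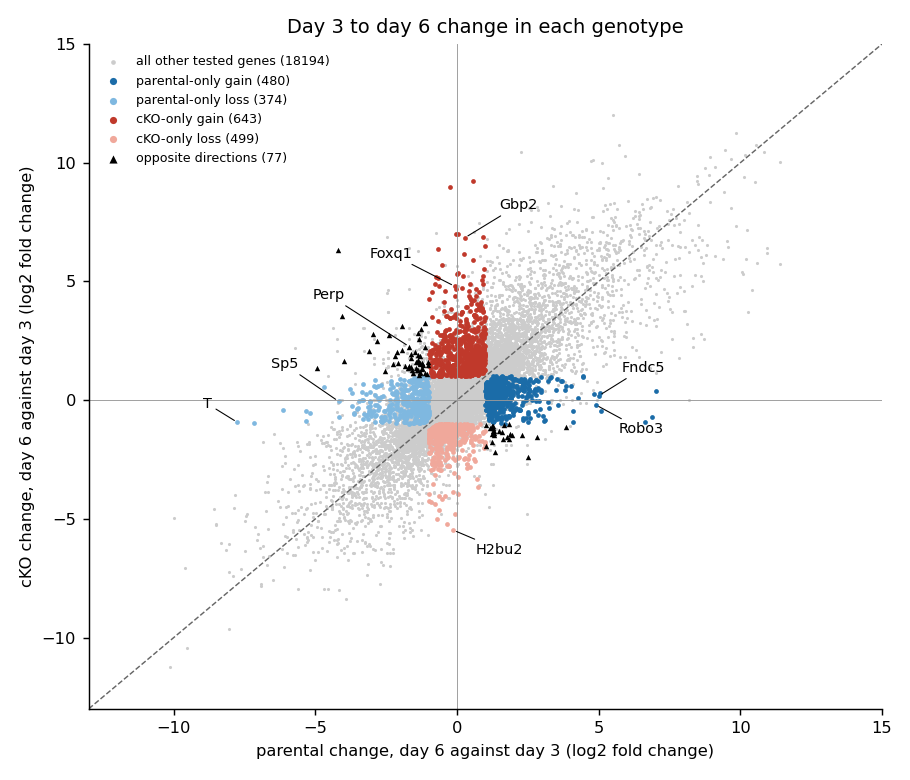
Each point is 1 of 20267 tested genes, with the parental log2 change from day 3 to day 6 on the x axis and the cKO change on the y axis; the dashed line marks equal change. Coloured genes moved at least 2-fold in 1 genotype and less in the other (480, 374, 643 and 499 genes by class), black triangles are the 77 that moved in opposite directions, and most genes lie along the line.

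Genes gained or lost in only 1 genotype were those with a called difference, a called change of at least 2-fold in that genotype and a change under 2-fold in the other. By this definition 480 genes were gained only in parental cells (2.37% of those tested) and 374 were lost only in parental cells (1.85%). In cKO cells alone 643 genes were gained (3.17%) and 499 were lost (2.46%). A further 77 genes moved at least 2-fold in opposite directions, 26 of them up in parental cells and 51 up in cKO cells. The remaining calls were 624 genes that rose at least 2-fold in both genotypes by unequal amounts, 365 that fell in both, and 2210 outside these classes. Without cKO day 6 replicate 2 the one-genotype classes held 531, 435, 608 and 496 genes, of which 435, 298, 502 and 388 were in the same class as before. The opposite classes then held 18 genes up in parental and 35 up in cKO cells, of which 13 and 25 were in the same class as before. A change under 2-fold does not mean that there was none.

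The libraries bore out these classes unevenly. Genes gained only in parental cells rose by a median of 1.43 to 1.47 on the log2 CPM scale in the 3 parental day 6 libraries. They stood at 0.42, -0.05 and 0.42 in the 3 cKO day 6 libraries, each against the day 3 mean of its own genotype. Genes gained only in cKO cells had medians of 1.34, 2.10 and 1.38 in those cKO libraries and of 0.31 to 0.36 in the parental ones. Replicate 2 was thus the farthest from the parental libraries in each of the 4 one-genotype classes, and replicates 1 and 3 lay close together. The classes were defined from these same libraries, so the medians describe and do not test them.

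**Figure D2:**
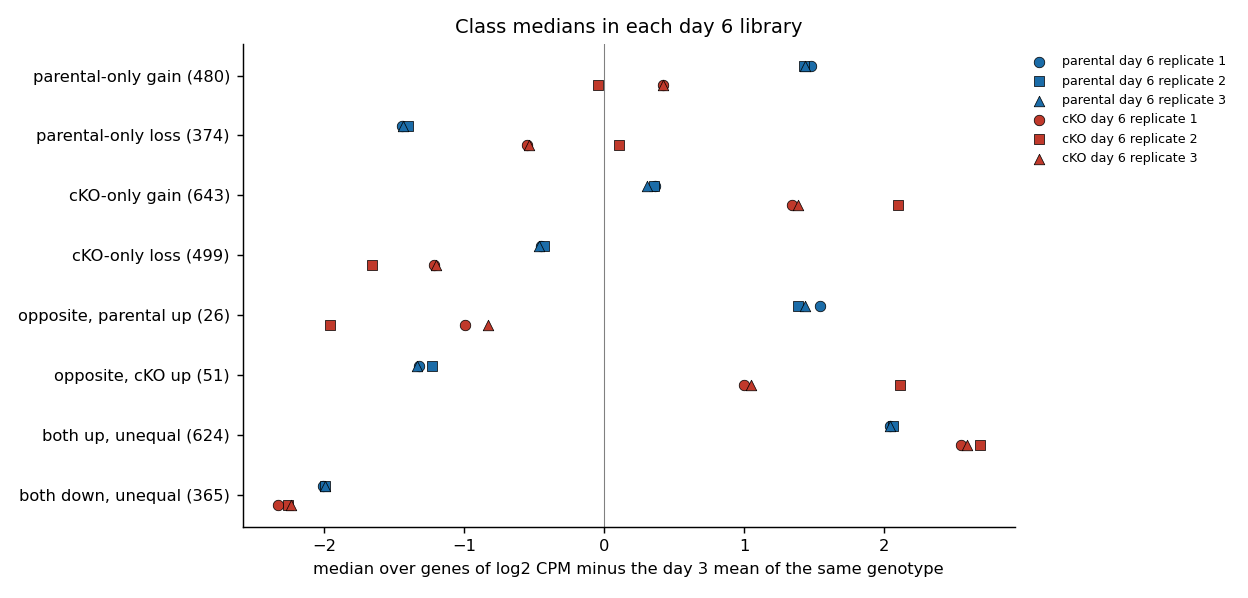
For each class, points give the median over its genes of log2 CPM in 1 day 6 library minus the day 3 mean of the same genotype, blue for parental and red for cKO. Replicate 2 of cKO day 6 (red square) lies at 2.10 for genes gained only in cKO cells, beyond the 1.34 and 1.38 of the other replicates.

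Several of the 480 genes gained only in parental cells are described singly, and the class was not tested for a theme. Fndc5, which encodes a membrane protein that is the precursor of irisin, lay at 2.57, 3.54 and 2.50 CPM in parental day 3 and 93.3, 89 and 95.8 CPM in parental day 6 libraries. In cKO libraries it stayed at 3.64, 3.53 and 3.29 CPM at day 3 and 3.01, 5.07 and 3.83 CPM at day 6. Only the parental day 6 libraries were high, with no overlap, and the difference of changes was -4.82 ± 0.23 (adjusted p = 3.38e-10), or -5.03 without replicate 2. Robo3, a guidance receptor of commissural axons, went from 0.526, 0.376 and 0.336 to 14.3, 10.7 and 11.3 CPM in parental libraries and from 0.482, 1.61 and 1.17 to 1.02, 0.645 and 1.09 CPM in cKO libraries, a difference of -5.09 ± 0.50 (adjusted p = 1.44e-06). The netrin receptor gene Unc5a gave -4.56 ± 0.40 (adjusted p = 4.09e-07), its libraries holding 30.7, 23.8 and 27.2 CPM at parental day 6 and 1.99, 1.15 and 2.50 CPM at cKO day 6. Spon1, whose product F-spondin guides axons at the floor plate, differed by -4.56, and its cKO mean was 9.37 CPM at day 3 and 11.1 CPM at day 6. Other leaders of the class were the long noncoding RNA Miat (-3.93), the synaptic adhesion genes Lrrc4b (-3.92) and Slitrk2 (-3.39), and Apba2 (-3.34), which encodes a neuronal adaptor.

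The list of neural progenitor genes moved the same way. Of 20 tested members, 12 had a lower and 2 a higher change in cKO cells, with a median of -1.5. In parental cells 17 of them rose, and in cKO cells 11 rose and 5 fell. Sox2, a factor of pluripotent cells and of neural progenitors, lay at 28.8, 41.9 and 39.6 CPM in parental day 3 and 186, 184 and 183 CPM in parental day 6 libraries, against 49.7, 58.2 and 51.5 and 40.1, 11.1 and 37.1 CPM in cKO. Its parental level rose while its cKO level fell, days 3 and 6 did not overlap in either genotype, and the difference was -3.17 ± 0.44 (adjusted p = 0.000225). The related Sox3, an early neural gene, was lost only in cKO cells, from 39.5, 45.5 and 40.5 to 12.9, 5.62 and 16.6 CPM, while the parental libraries held 42.4, 40.8 and 38.5 and then 79.4, 80.2 and 81.9 CPM (-2.83 ± 0.35, adjusted p = 4.99e-05). Irx3, a patterning factor of the intermediate neural tube, rose in both genotypes, to 141, 133 and 140.3 CPM in parental and 37.4, 16.9 and 37.9 CPM in cKO libraries. For Pax7, which marks dorsal neural tube and muscle precursors, the day 6 libraries held 53.8, 56.0 and 57.3 CPM in parental and 6.10, 1.52 and 7.37 CPM in cKO (adjusted p = 0.0456), a call lost without any 1 of several other libraries. Its day 3 libraries were at or near 0 in both genotypes, so no fold is given.

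Neuronal genes had the same direction. Of 20 proneural and neuronal genes, 12 had a lower and 2 a higher change in cKO cells, with a median of -1.38. Dcx, a microtubule protein of migrating neurons, went from 2.81, 2.18 and 2.24 to 19.4, 16.7 and 18.5 CPM in parental cells and from 3.07, 3.16 and 2.60 to 3.38, 0.737 and 2.60 CPM in cKO cells, a difference of -3.32 ± 0.46 (adjusted p = 6.11e-05). Elavl3, which encodes a neuronal RNA-binding protein, and Insm1, a zinc finger factor of neuronal differentiation, rose in parental and fell in cKO cells, with differences of -3.24 and -2.81. Neurog1, a proneural factor, reached 17.4, 17.3 and 18.2 CPM in parental day 6 and 1.99, 0.553 and 2.41 CPM in cKO day 6 libraries, its call being lost without cKO day 3 replicate 1. Its relative Neurog2 did not pass the test, at -0.50. The 2 exceptions that were higher in cKO cells were Neurod4 and Stmn2, named after their values were seen. The summed level of the neural progenitor list ran over 1726 to 1806 CPM in parental day 6 and 814 to 977 CPM in cKO day 6 libraries, replicate 2 being the lowest. In bulk RNA, fewer cells of a type and less RNA per cell cannot be told apart. Without replicate 2 the lists gave 13 and 11 lower members, with medians of -1.03 and -1.0.

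Notch genes followed the neural genes in part. Of 15 tested, 5 had a lower and 1 a higher change. Dll1, a Notch ligand of neural progenitors and of presomitic mesoderm, rose in parental cells, from 12.5, 10.7 and 10.5 to 68.9, 68.1 and 68.3 CPM. Its cKO libraries held 8.24, 13.5 and 10.2 and then 14.7, 5.66 and 15.7 CPM, a change that did not pass the test, and the difference was called (-2.42 ± 0.38, adjusted p = 0.000325). Lfng, which encodes a glycosyltransferase that tunes Notch in the segmentation clock, differed by -2.46 ± 0.22 (adjusted p = 4.63e-07) and the feedback inhibitor Nrarp by -2.05 ± 0.37 (adjusted p = 0.000931). Hes5, a Notch target, reached 60.8, 62.0 and 60.9 CPM in parental and 6.20, 1.2 and 7.08 CPM in cKO day 6 libraries (-4.27 ± 1.13, adjusted p = 0.0127), a call lost without cKO day 3 replicate 2. The receptor genes Notch1, Notch2 and Notch3 did not pass the test, at -0.57, 0.11 and 0.19. Jag1, a ligand, was the exception, with a higher change in cKO cells (0.66).

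Genes of the primitive streak differed in the other direction. Of 19 tested, 13 had a higher and 2 a lower change in cKO cells, the median difference was 2.38, and 15 fell in parental against 10 in cKO cells. T lay at 339, 265 and 347 CPM in parental day 3 libraries and fell to 1.69, 1.49 and 1.13 CPM at day 6. The cKO libraries began lower, at 71.9, 26.4 and 58.7 CPM, and ended higher, at 33.7, 11.3 and 37.4 CPM. The cKO day 6 libraries lay above all the parental day 6 libraries, and the difference was 6.81 ± 0.64 (adjusted p = 1.09e-05), or 7.17 without replicate 2. Sp5, a direct Wnt target, fell from 48.7, 32.9 and 42.7 to 1.77, 2.84 and 2.13 CPM in parental cells and stood at 15.6, 6.57 and 11.6 and then 12.6, 9.03 and 11.1 CPM in cKO cells (4.13 ± 0.35, adjusted p = 5.12e-07). Trh, the thyrotropin-releasing hormone gene, fell from 1185, 1205 and 1230.2 to 1.35, 0.879 and 1.44 CPM in parental and from 768, 709 and 899 to 34, 9.44 and 31.9 CPM in cKO cells (5.01 ± 0.54, adjusted p = 3.04e-05). Both genotypes thus began high in Trh, and the cKO cells retained more of it.

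The same held for signals and factors of the streak. Fgf8, the FGF ligand of the streak and tail bud, fell to 0.549, 0.575 and 0.376 CPM in parental and 4.72, 2.49 and 4.06 CPM in cKO libraries, from day 3 means of 38.3 and 25.5 CPM (3.43 ± 0.43, adjusted p = 3.08e-05). Mixl1, a streak homeobox factor, differed by 3.38, Nkx1-2, a factor of the caudal epiblast, by 2.38, and Cdx1, a caudal homeobox factor, by 4.22. For Cdx1 and Nkx1-2 the cKO level at day 3 was already below the parental one, at 2.03 against 30.9 CPM and 90.7 against 288 CPM. At day 6 these genes were low in both genotypes, at 1.02 and 0.807 CPM for Cdx1 and 2.62 and 1.60 CPM for Nkx1-2. Their difference of changes therefore rests on a smaller fall from a lower start. The 2 streak genes with a lower change in cKO cells were Fgf4, a ligand that ESCs also make (-3.63 ± 0.33, adjusted p = 1.39e-06), and Cdx4, whose cKO day 6 libraries held 0, 0 and 0.0472 CPM (adjusted p = 0.000742, no fold given). Eomes, which drives streak and endoderm programmes, did not pass the test (1.39), but did without replicate 2 (adjusted p = 0.000138).

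Several further genes, picked after their values were seen, had a higher change in cKO cells. Shh, the hedgehog ligand of notochord and floor plate, was at 0, 0 and 0 CPM in the cKO day 3 libraries and at 10.4, 3.45 and 12.6 CPM at day 6, with parental libraries of 0, 0 and 0.0746 and 0.127, 0.203 and 0.125 CPM (adjusted p = 0.0469), a call lost when any 1 of several other libraries was left out. Because a group at 0 makes the fitted fold arbitrary, none is given. Foxa2, a forkhead factor of axial mesoderm, floor plate and endoderm, fell in parental and rose in cKO cells, to 0.380, 0.845 and 0.626 and 5.69, 2.35 and 5.10 CPM (2.80 ± 0.57, adjusted p = 0.00153). Gli1, a transcriptional target of hedgehog signalling, did likewise, from 4.62, 5.53 and 5.71 to 1.61, 2.67 and 1.5 CPM and from 4.64, 4.77 and 4.77 to 13.7, 5.30 and 15.6 CPM (2.71 ± 0.42, adjusted p = 0.000146). Foxa1, a paralogue of Foxa2, reached 11.1, 3.36 and 11.5 CPM in cKO and 0.761, 1.01 and 1.44 CPM in parental day 6 libraries (3.56 ± 0.90, adjusted p = 0.00788). For Shh and Gli1 replicate 2 was the lowest cKO day 6 library, and the difference of Gli1 without it was 3.04.

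Wnt targets more often had a higher than a lower change in cKO cells. Of 15 tested, 10 had a higher and 1 a lower change, and the median was 0.97, or 0.79 without replicate 2. Nkd1, an inhibitor that Wnt signals induce, rose to 24.3, 23.4 and 23.2 CPM in parental and 46.9, 30.9 and 45.5 CPM in cKO cells (1.80 ± 0.25, adjusted p = 5.53e-05). Dkk1, a secreted Wnt antagonist, reached 6.06, 2.35 and 5.01 CPM in cKO day 6 libraries, and all other libraries lay below 1 CPM (5.42 ± 0.80, adjusted p = 9.02e-05). Notum, a secreted enzyme that inactivates Wnt ligands, went from 0.219, 0.248 and 0.212 to 1.90, 16.7 and 2.08 CPM in cKO cells and from 3.51, 2.82 and 2.95 to 1.99, 1.49 and 1.94 CPM in parental cells. Its difference was 5.68 ± 1.27 (adjusted p = 0.00573) with replicate 2 and 3.89 without it. Rspo3, which amplifies Wnt signals in presomitic mesoderm, differed by 2.73 ± 0.37 (adjusted p = 3.94e-05). The Wnt-responsive nuclear factors Lef1 and Tcf7 fell in both genotypes, and their differences did not pass the test, at 0.29 and -0.04. The single lower member was Lgr5, an R-spondin receptor, named after its values were seen.

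**Figure D3:**
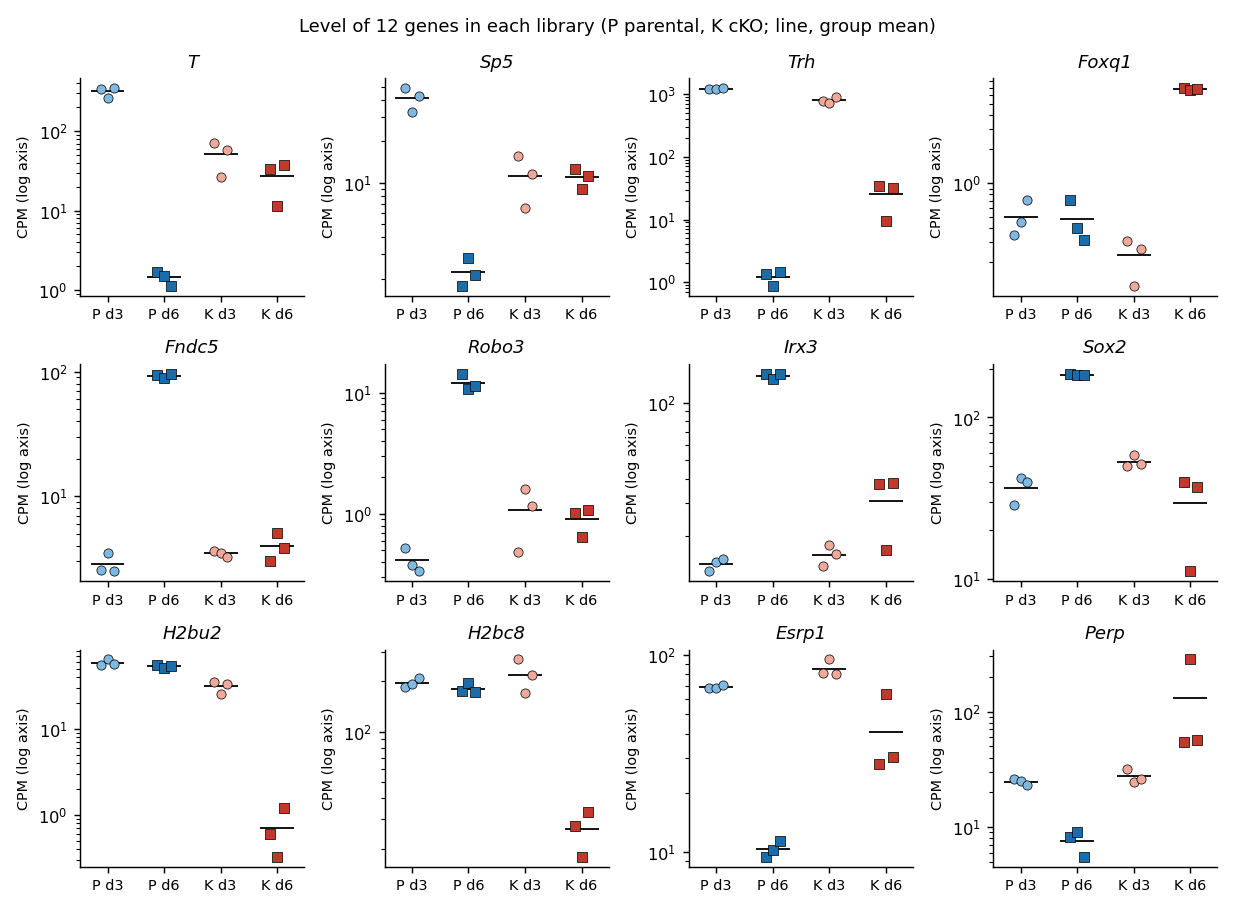
Points are the CPM of 12 genes in the 12 libraries on log axes, by genotype (P parental, K cKO) and day (d3, d6), with group means as lines. T, Sp5 and Trh stay higher in cKO at day 6, Foxq1 is high only there, Fndc5, Robo3, Irx3 and Sox2 are highest in parental day 6 libraries, H2bu2 and H2bc8 are lowest in cKO day 6 libraries, and at cKO day 6 Esrp1 and Perp are highest in replicate 2.

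Among the named genes lost only in cKO cells, the histone genes H2bu2 and H2bu1-ps had the largest differences. H2bu2, an H2B gene on chromosome 11, lay at 54.8, 64.1 and 56.7 CPM in parental day 3 and 55.6, 51.0 and 53 CPM in parental day 6 libraries. It went from 35.0, 25.5 and 33.1 to 0.601, 0.322 and 1.18 CPM in cKO cells, a cKO change of -5.47 ± 0.26 and a difference of -5.33 ± 0.32 (adjusted p = 1.11e-08). Its neighbour H2bu1-ps, annotated as a pseudogene, followed with -4.88 ± 0.32 (adjusted p = 4.27e-08). H2bc8, in the histone cluster of chromosome 13, gave -2.95 ± 0.28 (adjusted p = 7.32e-06), behind Ncan and Atcay, which are not histone genes and are described below. H2bc8 held 174, 196 and 172 CPM in parental and 27.3, 17.9 and 33.4 CPM in cKO day 6 libraries, with day 3 libraries between 170.4 and 270.4 CPM. The cKO day 6 libraries of H2bu2 and H2bc8 lay below all the others. Without replicate 2 the differences of H2bu2, H2bu1-ps and H2bc8 were -4.99, -4.62 and -2.74. Histone genes are near-identical copies, and the authors' counting could split or drop reads between them, so single-gene values are uncertain.

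All tested replication-dependent histone genes of the histone clusters were then counted, a group chosen after these values were seen and therefore not tested. They were taken by symbol, with H2bu1-ps the only pseudogene, and replication-independent histone variants are not among them. Of 67 tested histone genes, 29 were called lower and 0 higher by edgeR (0 at an unadjusted p under 0.05, 0 by DESeq2 and 0 by limma voom), and 62 lay below 0, with a median of -0.87. Without replicate 2 the called number was 44 and the median -0.59. Their share of all counts was 1.15% to 1.39% in the day 3 libraries of both genotypes and 1.17% to 1.21% in parental day 6 libraries. In cKO day 6 libraries it was 0.867%, 0.349% and 0.781%. By family the median difference was -1.09 for H1 (5 genes), -0.44 for H2A (20), -0.93 for H2B (19), -0.96 for H3 (11) and -0.91 for H4 (12). In the fit of the 12 libraries alone, an alternative added after seeing the data, 20 of 67 were called lower, with a median of -0.79. Their summed level was 10272 to 10947 CPM in parental day 6 and 3468 to 7881 CPM in cKO day 6 libraries, but 35.3 to 61.4 CPM in the 6 day 0 libraries of both genotypes. The titles of the day 0 libraries carry another number prefix than those of the 12 compared, which share 1, so day and library set cannot be told apart there. Transcripts of replication-dependent histone genes mostly lack poly(A) tails, and whether poly(A) RNA was selected, or alike in all libraries, is not stated.

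**Figure D4:**
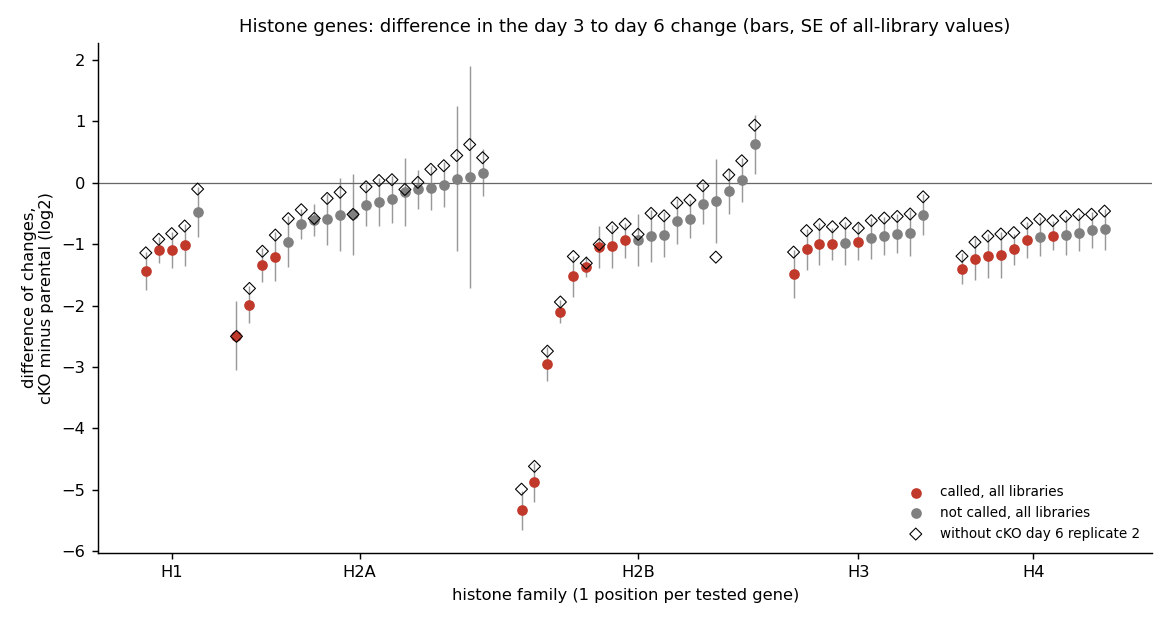
Each filled point is the log2 difference of changes of 1 of 67 replication-dependent histone genes with its SE, ordered within family, red where called. Diamonds give the same value without cKO day 6 replicate 2. Nearly all points lie below 0, and H2bu2 and H2bu1-ps, near -5, stand below the rest of the H2B family.

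Octamer motifs, to which Oct1 is known to bind, occur in H2B promoters, and the bases before the annotated start of 7 H2B genes are shown for that reason: 4 called genes with a match and, for contrast, H2bu2 and 2 uncalled genes without one, picked after their values were seen. The sequences are from RefSeq on GRCm38.p6, 120 bases ending at the base before the start, written 5′ to 3′ on the gene's strand. Capitals mark each match to the octamer ATGCAAAT or its reverse complement ATTTGCAT, the only motif searched, on both strands.
H2bc8 (chr13:23571280-23571399, plus strand): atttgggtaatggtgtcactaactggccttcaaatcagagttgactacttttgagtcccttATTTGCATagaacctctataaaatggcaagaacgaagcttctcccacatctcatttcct
H2bc3 (chr13:23746614-23746733, plus strand): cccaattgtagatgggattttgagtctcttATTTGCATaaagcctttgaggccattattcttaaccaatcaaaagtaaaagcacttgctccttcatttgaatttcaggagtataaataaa
H2bc14 (chr13:21721924-21722043, plus strand): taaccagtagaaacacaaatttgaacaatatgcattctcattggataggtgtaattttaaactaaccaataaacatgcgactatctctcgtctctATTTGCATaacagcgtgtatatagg
H2bc18 (chr3:96269580-96269699, plus strand): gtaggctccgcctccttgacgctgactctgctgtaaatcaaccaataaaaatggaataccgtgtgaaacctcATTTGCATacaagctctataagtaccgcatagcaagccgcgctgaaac
H2bu2 (chr11:58948791-58948910, plus strand): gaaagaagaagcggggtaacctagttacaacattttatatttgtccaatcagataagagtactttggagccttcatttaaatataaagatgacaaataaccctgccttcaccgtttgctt
H2bc13 (chr13:21716184-21716303, minus strand): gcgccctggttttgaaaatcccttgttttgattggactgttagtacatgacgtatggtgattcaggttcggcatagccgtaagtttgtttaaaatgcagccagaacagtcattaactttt
H2bc15 (chr13:21753956-21754075, plus strand): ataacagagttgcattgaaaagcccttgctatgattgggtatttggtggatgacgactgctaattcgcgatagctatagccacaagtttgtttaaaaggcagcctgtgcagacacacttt
The first 4 hold 1 octamer, with its first base 59, 90, 25 and 48 bases before the start, and the last 3 hold none in these bases. H2bc3 and H2bc14 were lost only in cKO cells (-2.10 ± 0.19, adjusted p = 6.76e-07, and -1.52 ± 0.34, adjusted p = 0.00488), as was H2bc18 (-1.04 ± 0.34, adjusted p = 0.0408), a call lost when any 1 of several other libraries was left out. The class allows a parental change under 2-fold. H2bc3 and H2bc18 also fell in parental cells, with changes of -0.36 (adjusted p = 0.0217) and -0.72 (adjusted p = 0.0181). H2bc13 and H2bc15 did not pass the test, at -0.34 and 0.05. The genes shown do not stand for the family: H2bc12 (-0.85) and H2bc1 (-0.29) hold a match and did not pass, though H2bc12 did without replicate 2 (-0.54), and Hist1h2bq (-1.05) holds none and did, a call also lost without any 1 of several libraries. H2bu2, with the lowest difference of these genes, had no match. Over the whole windows, 250 bases before to 50 after the start, 7 of 16 H2B genes with a window held an octamer, against 1.74% of all 32851 windows in the table. Of these, 5 of the 7 with a match and 2 of the 9 without were called lower. The median difference was -1.04 for the 7 genes with a match and -0.59 for the 9 without, or -1.2 and -0.28 without replicate 2. Of all tested genes, 12756 matched a window, and the octamer was in 1.74% of these. It was in 13 of 358 matched genes lost only in cKO cells (3.63%), or 6 of 338 (1.78%) with histone genes left out, and in 12 of 324 gained only in parental cells (3.70%). A match describes these letters and is not shown to be a bound site.

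Genes of the cell cycle lay beside the histones. Of 23 tested, 12 were called lower and 0 higher by edgeR (0 at an unadjusted p under 0.05, 0 by DESeq2 and 1 by limma voom), with a median of -0.47, and 21 fell in cKO against 15 in parental cells. Aurkb, a kinase of chromosome segregation, went from 44.4, 44.4 and 46.9 to 80.7, 81.2 and 80.7 CPM in parental and from 43.6, 43.6 and 41.1 to 39.6, 26.7 and 41.5 CPM in cKO cells (-1.09 ± 0.15, adjusted p = 5.22e-05). Top2a, the topoisomerase of dividing cells, differed by -0.78 ± 0.15 (adjusted p = 0.000989), Ccnb2, a mitotic cyclin, by -0.73 and Mcm2, a subunit of the replicative helicase, by -0.55. The replication clamp gene Pcna, at -0.63, and the cyclin gene Ccna2, at -0.22, did not pass the test. The list's median was -0.32, -0.84 and -0.29 when each cKO day 6 library was taken alone. Without replicate 2, 15 members were lower and 2 higher, with a median of -0.30. The part of cell cycle genes in the histone result was not tested.

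Other genes lost only in cKO cells are described singly; the neural progenitor and proneural lists held 1 and 2 members of this class. Ncan, which encodes the brain proteoglycan neurocan, stood at 120.1, 146 and 129 CPM in cKO day 3 libraries and fell to 6.57, 8.06 and 7.60 CPM, while parental libraries held 11.6, 10.7 and 10 and 7.77, 8.35 and 6.08 CPM (-3.63 ± 0.18, adjusted p = 3.56e-10). The cKO libraries thus began above the parental ones and overlapped them at day 6. Nfasc, an adhesion gene of axon nodes, differed by -2.69 ± 0.18 (adjusted p = 1.28e-08), the presynaptic gene Nrxn2 by -2.74 ± 0.26 (adjusted p = 1.13e-06) and Atcay, which encodes a neuronal protein mutated in Cayman ataxia in humans, by -3.39 ± 0.42 (adjusted p = 1.57e-05). Without replicate 2 the differences were -3.71, -2.58, -2.45 and -3.70.

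Among POU factors the difference was lower where it was called. Of 11 tested, 4 were called lower and 0 higher by edgeR (1 at an unadjusted p under 0.05, 1 by DESeq2 and 0 by limma voom), with a median of -1.16. Without replicate 2 these counts were 7 and 1. Pou2f2 (Oct2), the closest relative of Oct1, went from 2.98, 3.99 and 3.47 to 7.10, 4.19 and 4.32 CPM in parental and from 3.07, 3.16 and 2.76 to 0.832, 0.737 and 0.850 CPM in cKO cells (-2.46 ± 0.31, adjusted p = 2.23e-05). Pou3f4, a neural factor, reached 17.9, 16.8 and 18.8 CPM in parental and 3.42, 1.61 and 4.44 CPM in cKO day 6 libraries (-2.99 ± 0.41, adjusted p = 4.83e-05). Pou2f3 and Pou4f1 differed by -1.16 and -1.17, the call of Pou2f3 being lost without any 1 of 3 libraries. Pou5f1 (Oct4), the pluripotency factor, fell in both genotypes, from 323, 315 and 343 to 6.59, 6.02 and 6.20 CPM and from 355, 337 and 360.2 to 1.25, 6.13 and 4.11 CPM, and did not pass the test (-0.81); without replicate 2 it did, at -1.33 (adjusted p = 0.0103).

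Epithelial genes differed by an amount that depended on replicate 2. Of 17 junction genes 12 fell and 1 rose in parental cells, and 7 fell and 5 rose in cKO cells. The difference was higher for 11 and 0 lower by edgeR (0 at an unadjusted p under 0.05, 0 by DESeq2 and 1 by limma voom), with a median of 1.65, or 0.99 without replicate 2. With each cKO day 6 library taken alone the median was 0.85, 2.31 and 1.07. Esrp1, a splicing regulator of epithelial cells, fell from 68.5, 67.9 and 70.8 to 9.46, 10.2 and 11.4 CPM in parental cells and stood at 80.7, 95.0 and 80.4 and then 28.1, 63.6 and 30.4 CPM in cKO cells (1.67 ± 0.31, adjusted p = 0.00129, 1.2 without replicate 2). All 3 cKO day 6 libraries lay above the parental ones. Grhl3, a factor of surface ectoderm, was gained only in cKO cells, reaching 5.64, 19.2 and 7.32 CPM (3.34 ± 0.52, adjusted p = 0.000265, 2.61 without replicate 2), and Marveld2 and Ocln, tight junction genes, differed by 2.08 and 1.52, or 1.46 and 1.0 without it. Lsr, a tricellular junction gene, was at 0.01 with all libraries and at -0.37 (adjusted p = 0.00295) without replicate 2.

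Some genes gained only in cKO cells were highest in replicate 2, and others were not. Gbp2, an interferon-inducible GTPase gene, lay at 0.657, 0.124 and 0.795 CPM in cKO day 3 and 22, 146 and 21.9 CPM in cKO day 6 libraries, against 6.25, 10.5 and 7.94 and 10.6, 10.2 and 9.14 CPM in parental cells (6.57 ± 1.06, adjusted p = 0.000742, 5.04 without replicate 2). Wnt6, a ligand of surface ectoderm, reached 24, 108 and 26.2 CPM and Tgm1, a transglutaminase of the skin barrier, 25.8, 103 and 25.6 CPM, while their parental libraries stayed below 5 CPM. The differences were 4.43 and 4.32 with replicate 2 and 3.34 and 3.28 without it. Lamb3, a laminin chain of epithelial basement membranes, and Cyp1a1, a cytochrome P450 induced through the aryl hydrocarbon receptor, fell from 5.03 to 3.88 and from 5.46 to 3.32 when it was left out. Foxq1, a forkhead factor, was among those that were not, like Dkk1 and Rspo3: its cKO day 6 libraries held 6.94, 6.68 and 6.89 CPM, every other library lay below 1 CPM, and the difference was 4.88 ± 0.49 (adjusted p = 1.83e-06) or 4.89 without replicate 2.

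Targets of p53, the factor that answers DNA damage and other stress, had a higher change in cKO cells. Of 21 tested, 16 were higher and 0 lower by edgeR (0 at an unadjusted p under 0.05, 0 by DESeq2 and 0 by limma voom), with a median of 1.26. Cdkn1a, the p21 inhibitor of cyclin-dependent kinases, went from 80.0, 72.2 and 74.4 to 42.0, 37.9 and 39.4 CPM in parental and from 66.5, 57.3 and 63.5 to 95.7, 239.9 and 98.6 CPM in cKO cells (2.14 ± 0.37, adjusted p = 0.00107). Perp, a desmosomal protein gene, fell in parental cells to 8.2, 9.03 and 5.51 CPM and rose in cKO cells to 54.2, 282 and 56.5 CPM (3.93 ± 0.73, adjusted p = 0.00191). Replicate 2 was the highest of its group in both genes, and without it the differences were 1.56 and 2.67. The list's median with each cKO day 6 library taken alone was 0.62, 2.01 and 0.58. Without that library 17 members were still higher, with a median of 0.60. Genes of the unfolded protein and stress responses gave, of 20 tested, 12 higher and 0 lower by edgeR (1 at an unadjusted p under 0.05, 0 by DESeq2 and 1 by limma voom), with a median of 0.59. Hspa5, the chaperone of the endoplasmic reticulum, differed by 0.69 ± 0.08 (adjusted p = 7.83e-06) and Sqstm1, an autophagy receptor gene, by 0.91 ± 0.16 (adjusted p = 0.000444). In replicate 2 the share of counts from ribosomal protein genes was 2.61%, against 3.12% to 3.42% in the other day 6 libraries, and that of mitochondrial genes was 4.44% to 4.58% in cKO and 3.44% to 3.56% in parental day 6 libraries. At day 3 it was lower in cKO libraries, at 5.22% to 5.50% against 5.80% to 6.16%, and the part of either share in these results was not tested.

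Somite genes rose in both genotypes. Of 20 tested, 16 rose in parental and 18 in cKO cells, with median changes of 4.79 and 5.10, and 2 had a higher and 2 a lower change. Meox1, a homeobox gene of early somites, reached 68.2, 78.7 and 71.9 CPM in parental and 131, 29.6 and 135 CPM in cKO day 6 libraries, with replicate 2 the lowest, and did not pass the test (adjusted p = 0.994); with day 3 near 0, no fold is given. Pax3, of dermomyotome and neural tube, reached 79.8, 78.5 and 83.7 and 53.3, 17.2 and 53.8 CPM and did not pass the test (-0.86). The called members were Pax7 and Sox9, lower, and Aldh1a2 and Fst, higher. Sox9, a factor of sclerotome, neural crest and neural progenitors, gave -2.62 ± 0.34 (adjusted p = 8.3e-05), and Aldh1a2, the enzyme that makes retinoic acid in somites, gave 2.13 ± 0.27 (adjusted p = 2.2e-05). Fst, the activin antagonist follistatin, fell to 14.4, 15.1 and 14.3 CPM in parental and 73.4, 25.0 and 71.9 CPM in cKO cells (2.68 ± 0.41, adjusted p = 0.000443). A p that misses the threshold does not show that the changes were equal. Without replicate 2 the list's higher and lower counts were 5 and 2. At day 6 the cultures also held Tbx6 at a mean of 0.740 CPM in parental and 0.714 CPM in cKO libraries, so this defining gene of presomitic mesoderm was nearly absent.

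Presomitic genes were split. Of 21 tested, 9 had a higher and 5 a lower change, the lower ones including Dll1, Lfng and Nrarp. Snai1, which drives cells out of epithelia, was higher in cKO cells (1.57 ± 0.25, adjusted p = 0.000187), with day 6 levels of 11, 9.81 and 10.3 CPM in parental and 23.3, 14.5 and 25.8 CPM in cKO. Ripply1, a factor that closes the segmentation programme, did not pass the test (-0.41). Of 12 muscle genes, 3 were lower and 0 higher by edgeR (3 at an unadjusted p under 0.05, 3 by DESeq2 and 4 by limma voom). The lower ones were the embryonic myosin gene Myh3 (-2.45), Ttn, which encodes titin (-1.46), and the cardiac actin gene Actc1 (-1.13), the calls of Ttn and Actc1 being lost without some libraries. Acta1, the skeletal actin gene, was at 30.5, 349 and 31.1 CPM in the cKO day 6 libraries and did not pass the test.

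Hox genes rose in both genotypes as well. All 15 tested trunk Hox genes (groups 5 to 9) rose in parental and in cKO cells, with median changes of 6.42 and 6.55. These folds start from low levels, with day 3 sums of 10.8 to 12.8 CPM in parental and 2.54 to 3.87 CPM in cKO libraries. The levels reached were not alike: the day 6 sums were 867 to 897 CPM in parental and 68.5 to 163.5 CPM in cKO libraries. The difference was called for Hoxb9, lower (-1.87 ± 0.66, adjusted p = 0.049, a call lost without some libraries), and for Hoxd8 and Hoxd9, higher (adjusted p = 0.0228 and 0.0103), whose cKO day 3 libraries were at or near 0, and the call of Hoxd8 was likewise lost without some libraries. Hoxb9 reached 411, 412 and 407 CPM in parental and 32.0, 19.8 and 37.6 CPM in cKO day 6 libraries, from day 3 means of 1.16 and 0.321 CPM. The anterior genes (groups 1 to 4) gave, of 12 tested, 3 higher and 0 lower by edgeR (1 at an unadjusted p under 0.05, 1 by DESeq2 and 1 by limma voom), among them Hoxa3 (1.59) and Hoxb1 (1.18). Their summed level was nevertheless lower in cKO cells at both days. It was 124 to 137 and 25.3 to 49.7 CPM in parental and cKO day 3 libraries, and 655 to 674 and 119 to 280 CPM at day 6. Of 6 posterior genes (groups 10 to 13) there were 0 higher by edgeR (2 at an unadjusted p under 0.05, 1 by DESeq2 and 0 by limma voom) and 0 lower by edgeR (0 at an unadjusted p under 0.05, 0 by DESeq2 and 1 by limma voom). For the trunk genes replicate 2 gave a median difference of -2.19, against -0.36 and -0.58 in the other cKO day 6 libraries.

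Genes of other mesoderm and of endoderm mostly had a higher change in cKO cells where called. Of 14 lateral plate and cardiac genes 4 were higher and 0 lower by edgeR (0 at an unadjusted p under 0.05, 0 by DESeq2 and 0 by limma voom). Of 14 endothelial and blood genes 7 were higher and 0 lower by edgeR (0 at an unadjusted p under 0.05, 0 by DESeq2 and 0 by limma voom). Bmp4, the BMP ligand of extraembryonic tissue and lateral plate, reached 5.07, 4.87 and 6.14 CPM in parental and 29.7, 49.6 and 26.4 CPM in cKO day 6 libraries (3.17 ± 0.47, adjusted p = 9.26e-05, 2.85 without replicate 2). Flt1, a VEGF receptor, rose to 18, 18.6 and 17.1 and 59.7, 53.8 and 59.3 CPM (1.07 ± 0.21, adjusted p = 0.00125), whereas Cdh5, the cadherin that defines endothelium, reached 4.01, 5.17 and 5.26 and 8.74, 2.35 and 9.30 CPM and did not pass the test. Definitive endoderm genes gave 7 higher and 1 lower of 15, among them the keratin gene Krt19 (2.07) and Epcam, an epithelial adhesion gene (1.46). Without replicate 2 Krt19 and Epcam differed by 1.56 and 0.89, and Epcam is also on the list of junction genes. Sox17, which defines endoderm, reached 9.34, 2.58 and 8.03 CPM in cKO and 1.61, 1.12 and 1.57 CPM in parental day 6 libraries and did not pass the test (adjusted p = 0.0511, or 0.00163 without replicate 2). The chemokine receptor gene Cxcr4 was the 1 lower member (-1.88). Extraembryonic endoderm genes gave, of 16 tested, 8 higher and 0 lower by edgeR (0 at an unadjusted p under 0.05, 0 by DESeq2 and 1 by limma voom). Among these the laminin gene Lamb1 (1.22) and the adaptor gene Dab2 (0.89) are also expressed in other cells, and Apob, a lipoprotein of yolk sac and liver, differed by 2.84 ± 0.49 (adjusted p = 0.000398).

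Fibroblast and feeder genes gave, of 18 tested, 8 higher and 0 lower by edgeR (0 at an unadjusted p under 0.05, 0 by DESeq2 and 0 by limma voom), with a median of 0.93. Their summed level was 259 to 264 CPM in parental and 269.6 to 331 CPM in cKO day 3 libraries, and 2775 to 3012 and 4871 to 7013 CPM at day 6. Col1a1, the collagen gene that makes up much of it, did not pass the test (0.30), while Col1a2 (0.71) and Pdgfrb (2.03), a receptor of mesenchymal cells, did. Thy1, a surface protein of fibroblasts, neurons and ESCs, was at 1.62, 15 and 1.98 CPM in the cKO day 6 libraries (4.45 ± 1.06, adjusted p = 0.00832, 2.67 without replicate 2). Somitic mesoderm also expresses collagens, and the part of other cells in these values was not tested. Genes of the epithelial to mesenchymal transition rose in both genotypes, 13 of 13 in each, with 3 higher and 1 lower differences. Fn1, which encodes fibronectin, had a higher change in cKO cells (2.15 ± 0.45, adjusted p = 0.00392, 1.42 without replicate 2), at 2088, 6391 and 2206 CPM in the cKO day 6 libraries. Of 12 neural crest genes 2 were lower, Foxd3 (-3.98) and Sox9, and 0 higher by edgeR (1 at an unadjusted p under 0.05, 0 by DESeq2 and 0 by limma voom).

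Smad factors carry the signals of the TGF-beta family, whose genes differed in both directions. Of 23 tested genes of TGF-beta, Nodal and BMP signalling, 7 had a higher and 2 a lower change, with a median of 0.54. Bmp7, a BMP ligand, went from 14.4, 15.8 and 14.3 to 18.5, 18.3 and 17.9 CPM in parental and from 8.28, 6.82 and 8.85 to 30.9, 39.0 and 30.9 CPM in cKO cells (1.77 ± 0.20, adjusted p = 5.4e-06). Lefty1, a Nodal antagonist and target, fell in both genotypes, to 1.99, 1.52 and 2.07 and 1.57, 1.29 and 2.12 CPM, from day 3 means of 115 and 36.4 CPM (1.52 ± 0.25, adjusted p = 0.000253). Tdgf1, the Nodal co-receptor Cripto, fell further in cKO cells (-0.92 ± 0.15, adjusted p = 0.000185), and Msx1, a BMP target, was lower as well (-2.47 ± 0.48, adjusted p = 0.00114). Skil, a Smad corepressor, was at 0.31 and did not pass the test.

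FGF and ERK response genes gave 6 higher and 1 lower of 16, all but Spred2 in the direction of cKO. Il17rd, an inhibitor that FGF signals induce, fell to 40.1, 44.5 and 48.0 CPM in parental and 81.0, 99.7 and 89.8 CPM in cKO cells (1.24 ± 0.14, adjusted p = 8.98e-06), and the ETS factors Etv4 and Etv5 differed by 1.04 and 0.63. The feedback genes Dusp6 and Spry2 did not pass the test, at 0.54 and 0.20. Retinoic acid genes were split, with 5 higher and 4 lower of 16. Rdh10, which begins the synthesis of retinoic acid, rose more in cKO cells (1.54 ± 0.20, adjusted p = 3.18e-05). Dhrs3, which retinoic acid induces and which limits its synthesis, went from 1.58, 1.92 and 1.31 to 9.93, 11.2 and 11.6 CPM in parental and from 4.64, 5.70 and 5.56 to 4.35, 2.90 and 4.30 CPM in cKO cells (-3.22 ± 0.26, adjusted p = 2.01e-07).

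The loss of pluripotency genes was shared, with a deeper fall of some in cKO cells. Of 14 general pluripotency genes, 12 fell in parental and 13 in cKO cells, and 6 had a lower and 2 a higher change. Of 17 naive genes 5 were lower and 3 higher, of 12 formative and primed genes 4 and 1, and of 16 germline genes 2 and 1. Nanog, a core pluripotency factor, fell from 196, 213 and 192 to 13, 12.2 and 15.9 CPM in parental and from 185, 134 and 182 to 2.36, 1.98 and 2.74 CPM in cKO cells (-2.26 ± 0.18, adjusted p = 1.48e-07). Utf1, a chromatin factor of pluripotent cells, differed by -1.81 ± 0.41 (adjusted p = 0.00596), and Dppa5a, an RNA-binding protein gene, by -1.18. L1td1, another RNA-binding protein gene, was the reverse: it fell to 8.66, 7.41 and 9.27 CPM in parental and 17.0, 60.6 and 16.7 CPM in cKO cells (1.76 ± 0.52, adjusted p = 0.0241, 0.88 without replicate 2), a call lost without parental day 6 replicate 1 or 2. Dazl, a germ cell gene, differed by -2.04.

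Imprinted genes gave calls in both directions, and few glycolysis and hypoxia genes were called. Imprinted genes gave 8 higher and 6 lower of 25, with a median of 0.22. Peg10, a retrotransposon-derived gene of the placenta, rose from 679, 786 and 749.7 to 4069, 4358 and 4145 CPM in parental and from 181, 218 and 186 to 4048, 5673 and 4038 CPM in cKO cells (2.05 ± 0.16, adjusted p = 1.42e-07). The cKO cells thus started lower and reached the parental level. Grb10, a growth inhibitor gene, differed by 1.58 ± 0.21 (adjusted p = 5.79e-05), Igf2r, the receptor that clears IGF2, by -0.95 ± 0.13 (adjusted p = 4.92e-05) and the noncoding RNA Meg3 by -0.77. Trophoblast genes gave, of 14 tested, 5 higher and 0 lower by edgeR (2 at an unadjusted p under 0.05, 0 by DESeq2 and 1 by limma voom), among them Gata3 (1.69) and Krt7 (2.12, 1.43 without replicate 2), whose call was lost without any 1 of several other libraries. Glycolysis and hypoxia genes gave, of 22 tested, 3 higher and 0 lower by edgeR (5 at an unadjusted p under 0.05, 0 by DESeq2 and 4 by limma voom), with a median of 0.05. The share called higher was near the 12.4% over all tested genes. The called members were led by the glucose transporter gene Slc2a3, which fell to 330.2, 333 and 333 CPM in parental and rose to 715, 1709 and 769 CPM in cKO cells (2.15 ± 0.35, adjusted p = 0.000639). The glycolytic genes Gapdh, Eno1 and Pkm did not pass the test, at -0.28, -0.01 and -0.37.

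Without cKO day 6 replicate 2 the higher and lower counts were 7 and 0 for lateral plate, 10 and 1 for endothelial, 11 and 1 for extraembryonic endoderm, 10 and 1 for definitive endoderm, 7 and 2 for anterior Hox, 3 and 2 for trunk Hox, 10 and 0 for fibroblast, 6 and 1 for transition and 7 and 1 for trophoblast genes. The lists share members, so their counts are not independent. The medians of all lists are set side by side in the plot by list, where streak genes and neural progenitor genes take the ends of the scale with all libraries. Without cKO day 6 replicate 2, posterior Hox (-1.49), POU (-1.33) and germline genes (-1.04) lay below neural progenitor genes (-1.03).

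**Figure D5:**
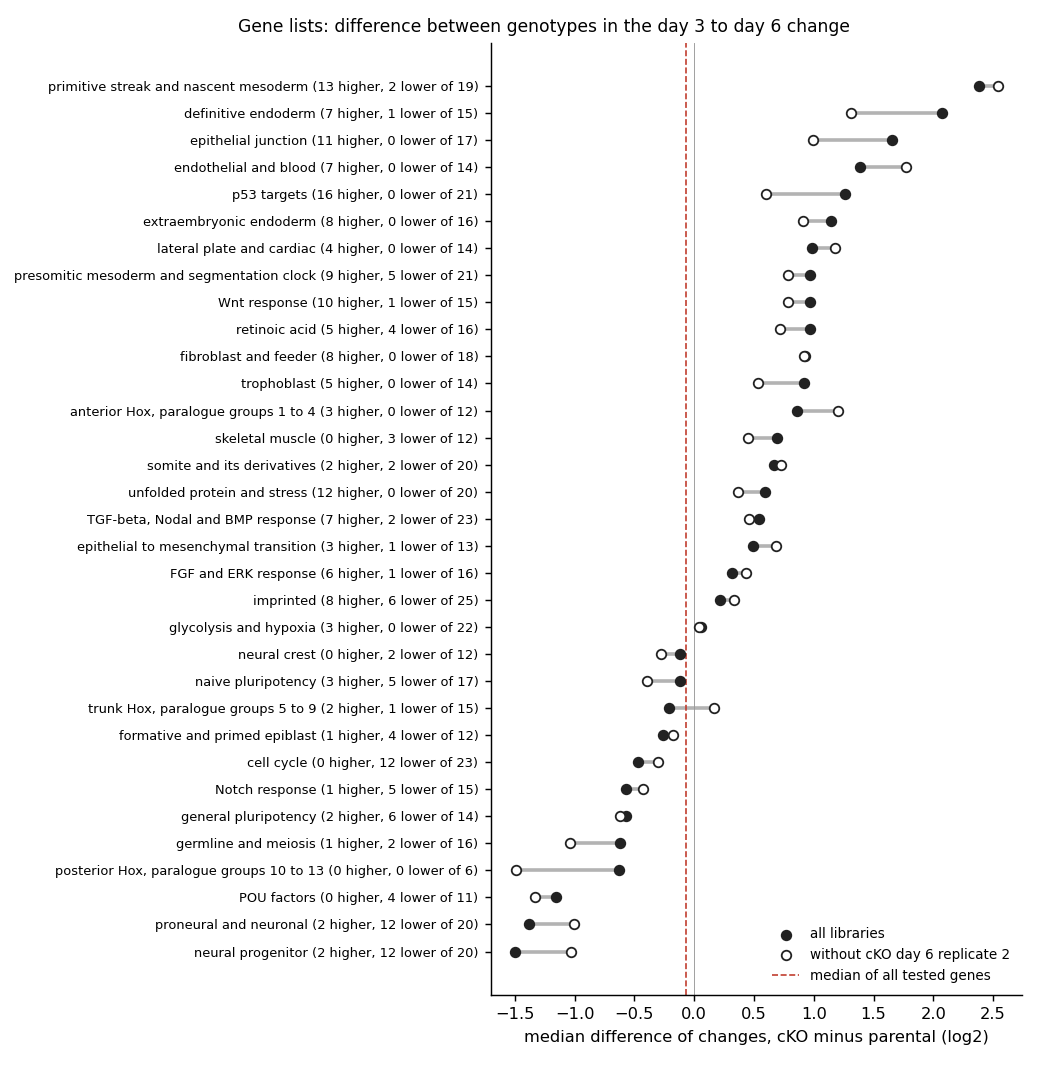
For each of 33 gene lists, the filled point is the median log2 difference of changes over its tested members with all libraries and the open point the median without cKO day 6 replicate 2; labels give the members called higher and lower. Streak genes lie farthest to the right (2.38) and neural progenitor genes farthest to the left (-1.5) with all libraries, and the epithelial (1.65 to 0.99) and p53 medians move towards 0 when the library is left out.

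Genes lost only in parental cells included adhesion and metabolic genes beside T and Sp5. Lama3, a laminin chain of epithelia, fell from 15.8, 18.9 and 20.6 to 1.31, 1.18 and 1.88 CPM in parental cells, and its cKO libraries held 4.07, 5.39 and 4.66 and then 1.02, 14.9 and 1.56 CPM (4.03 ± 1.0, adjusted p = 0.0103, 1.88 without replicate 2). Replicate 2 was thus far above the other cKO day 6 libraries. Il33, an alarmin cytokine gene, differed by 3.40 ± 0.34 (adjusted p = 1.5e-06), or 3.15 without that library, and Ass1, an enzyme of arginine synthesis, by 3.12 or 1.74.

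Of the 77 genes that moved in opposite directions, those up in parental cells included further neural genes. Lrrc4, a synaptic adhesion gene, went from 5.67, 5.23 and 5.82 to 22.7, 20.6 and 20.3 CPM in parental and from 8.15, 8.30 and 6.68 to 2.96, 1.47 and 3.83 CPM in cKO cells (-3.41 ± 0.32, adjusted p = 8.1e-07). Brsk2, a kinase of neuronal polarity, differed by -2.83, and Rgs9, a regulator of G protein signalling in retina and striatum, by -3.29. Cd55, which protects cells from complement, moved the other way, from 6.08, 6.25 and 5.97 to 1.65, 2.77 and 2.63 CPM and from 3.64, 3.16 and 2.97 to 12.4, 42.9 and 14.2 CPM (4.20 ± 0.57, adjusted p = 0.00016, 3.39 without replicate 2). In Cd55 all 3 cKO day 6 libraries lay above all the others. Evpl, an envelope protein gene of stratified epithelia, did likewise, at 3.50 or 2.70 without replicate 2.

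Few genes switched between off and on in 1 genotype only. With off set under 1 CPM and on at 5 CPM or more in every library of a group, 1 gene was switched on only in parental cells, 1 only in cKO cells, and 1 was switched off only in cKO cells. These were Epha10, Foxq1 and H2bu1-ps. Epha10, which encodes an ephrin receptor without kinase activity, lay at 0.585, 0.527 and 0.597 CPM in parental day 3 and 8.32, 7.47 and 9.14 CPM in parental day 6 libraries, against 0.526, 0.929 and 0.742 and 0.324, 0.184 and 0.472 CPM in cKO cells (-4.98 ± 0.44, adjusted p = 4.63e-07). Without replicate 2 the rule also took Filip1 as on only in parental cells, Corin, Dkk1 and Shh as on only in cKO cells, and Trap1a as off only in cKO cells, genes named after their values were seen. Filip1, an actin-linked gene, stood at 5.11, 5.78 and 6.14 CPM in parental and 0.832, 1.11 and 0.614 CPM in cKO day 6 libraries. Corin, a membrane protease of heart and skin, stood at 6.43, 1.2 and 6.89 CPM in the cKO day 6 libraries and under 1 CPM in all others. Trap1a, an X-linked tumour antigen gene, fell to 7.23, 6.87 and 6.08 CPM in parental and 0.416, 1.75 and 0.236 CPM in cKO cells.

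Genes of chromosome 11 were lower in cKO cells at both days. Among genes with a mean of at least 5 CPM, the median cKO level minus the parental level was -0.39 at day 3 and -0.49 at day 6 on this chromosome (905 genes), against 0.04 and -0.03 elsewhere (10409 genes), on the log2 scale. The median difference of changes was -0.12 on chromosome 11 and -0.06 elsewhere, and 218 of its genes were lower and 123 higher, against 1988 and 1726 elsewhere. Of the genes named here, H2bu2, H2bu1-ps, Notum, Sox9, Meox1, Myh3, Krt19, Col1a1, Hoxb1, Hoxb9, Tcf7, Etv4, Spred2, Grb10, Aurkb, Top2a, Sqstm1, Rgs9, Evpl, Irgm1 and Acsl6 lie on it, and the part of the chromosome in their values was not tested.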

How the data were processed

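RNA was sequenced in bulk, and the deposited values are raw counts per gene, which the authors made with Novoalign and the mm10 (GRCm38) build, per the submitters' processing notes, which also name DESeq2 1.10.0. No source used here names the counter, the annotation or the strandedness. All columns were matched to samples by name. Counts of 18 libraries (14046322 to 26995420 in the 12 compared) were filtered with filterByExpr, leaving 20267 of 25279 genes, scaled with TMM and fitted with group means in edgeR 4.0.16 (R 4.3.3), robust quasi-likelihood test, Benjamini-Hochberg adjusted p under 0.05. SEs are implied by the F statistic. The biological coefficient of variation was 13.5%, or 16.2% with the 12 compared libraries alone. limma 3.58.1 (voom) and DESeq2 1.42.0 were alternatives, as were other scalings, filters, folds and leaving out each library. The test was also run on simulated counts with known differences. These held no library set apart as cKO day 6 replicate 2 was, and the outcome is not given here. Genes were named by rule: Pou2f1; the 10 largest differences each way and in each one-genotype class among genes called both with all libraries and without cKO day 6 replicate 2, with a mean of at least 5 CPM in 1 or more of the 4 groups; switched genes; and, for every list, the 5 called members of lowest adjusted p (all where 5 or fewer were called) and 3 uncalled members of highest expression. Predicted genes were left out. Members and lists were chosen with earlier results of these data known. Histone genes and the octamer were chosen after values were seen, as were Corin, Trap1a, Neurod4, Stmn2, Lgr5 and Spred2. Some results are not reported here. Promoter sequences are RefSeq, GRCm38.p6.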

Additional observations from a re-analysis of the deposited data

Results flagged for a closer look

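The difference between genotypes was itself tested here, so each called gene is a difference between groups under the same contrast. It was higher in cKO cells for 2515 genes and lower for 2757 by edgeR's quasi-likelihood test. Among the genes described by the naming rule, 23 moved at least 2-fold in opposite directions with all libraries, each past the test in both genotypes. Without cKO day 6 replicate 2, only 13 of all 26 such genes up in parental cells and 25 of all 51 up in cKO cells stayed in these classes. Epha10 did not, its cKO change being -0.83 (adjusted p = 0.0753) by the same test. Those that rose in parental and fell in cKO cells had these log2 differences: Epha10 (-4.98), Lrrc4 (-3.41), Dbx2 (-3.31), Rgs9 (-3.29), Elavl3 (-3.24), Cpne5 (-3.01), Brsk2 (-2.83), Insm1 (-2.81), Frmd5 (-2.77), Acsl6 (-2.59), Car14 (-2.32). Those that fell in parental and rose in cKO cells had these: Slc52a3 (5.15), Cd55 (4.20), Ldlrad4 (4.17), Perp (3.93), Gipc2 (3.60), Evpl (3.50), A4galt (3.38), Irgm1 (3.27), Foxa2 (2.80), Gli1 (2.71), Ano3 (2.65), Slc2a3 (2.15). With 3 libraries in a group, single libraries were not tested for distance from their group.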

How the results depend on the processing

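No paired analysis was possible because the replicate numbers were given in accession order and pair no libraries across groups. Leaving out 1 library at a time gave 2025 to 3103 genes higher and 2204 to 3429 lower, 6058 to 7491 up and 6170 to 7454 down in parental cells, and 5965 to 6623 up and 6707 to 7377 down in cKO cells. The one-genotype classes ran from 401 to 534 (gained in parental), 314 to 435 (lost in parental), 519 to 859 (gained in cKO) and 414 to 724 (lost in cKO), with 53 to 127 opposite (127 without cKO day 6 replicate 1) and 788 to 1443 unequal in the same direction. Genes switched on in parental cells numbered 1 to 2, switched off 0 in each case, on in cKO cells 1 to 4 and off 1 to 2. With the 12 libraries alone, 1775 genes were lower and 308 were lost only in cKO cells. DESeq2 and limma voom each gave 2 genes switched on in parental cells, and 0 were switched off in cKO cells outside chromosome 11 or among protein-coding genes, H2bu1-ps being a pseudogene on that chromosome. A 1.5-fold minimum gave 180 opposite and 1566 same-direction genes. A 4-fold minimum gave 215 gained and 193 lost only in parental cells, 179 lost only in cKO cells, 8 opposite and 342 in the same direction. With off under 0.5 and on from 2 CPM, 2 genes were on and 1 off only in parental cells, and 4 on and 4 off only in cKO cells. Higher calls were 47.7% of all calls, against 53.5% with RLE factors, 45.1% with total counts, 60.5% with no low-count filter and 57.7% with 12 libraries alone. Lsr turned from 0.01 to -0.37 without cKO day 6 replicate 2 and to -0.33 with limma voom; its single-library range was -0.37 to 0.18. Of 144 called genes named in the text, 129 stayed called in the same direction in every setting run in which they were tested. Leaving out some library other than cKO day 6 replicate 2 ended the call of Actc1, H2bc18, Hes5, Hist1h2bq, Hoxb9, Hoxd8, Krt7, L1td1, Neurod4, Neurog1, Pax7, Pou2f3, Shh and Ttn. Leaving out that replicate brought Acta1, Dusp6, Eomes, H2bc12, Lef1, Notch1, Pcna, Pkm, Pou5f1 and Sox17 past the test. The cause of these shifts was not tested. At these depths, genes near 0 in a group allow no fold.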

Other observations

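No contrast of the report compared the day 0 libraries. They entered the filter on low counts, the scaling of libraries to each other and the estimate of the spread. H2bu2 held 0.312, 0.675 and 0.247 CPM in parental and 0.299, 0.0784 and 0.250 CPM in cKO day 0 libraries, which is before differentiation. H2bc8 held 0.436, 0.787 and 0.247 CPM in parental and 0.374, 0.157 and 0.563 CPM in cKO day 0 libraries. These low levels are not particular to H2bu2 and H2bc8. All 67 replication-dependent histone genes summed to 35.3 to 61.4 CPM in day 0 libraries, against 3468 to 14435 CPM in the compared libraries. The day 0 titles carry another number prefix, so day and library set cannot be told apart. Whether poly(A) RNA was selected alike in all libraries is not stated.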
